A study of Mus musculus with 9 samples.

Results

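The integrin subunits examined here are 10 genes, Itga4, Itga5, Itga6, Itgal, Itgam, Itgax, Itgav, Itgb1, Itgb2 and Itgb5, out of 55487 genes in the count tables. They were taken from a written list of alpha and beta chains, matched by symbol to their Ensembl identifiers, and read by heterodimer partner. All 10 passed the filter on low counts and were tested. The RNA came from J774A.1, a mouse macrophage cell line, in 3 groups of 3 libraries each. The control group carried a safe sgRNA, a guide RNA with no intended effect, and has the genotype label WT. The other groups carried sgRNA 11 or sgRNA 15 against Slc12a9, a member of the SLC12 family of cation-chloride cotransporters. The labels call both a knockdown of SLC12A9, and the series' design text calls them knockouts. All 9 libraries, controls included, came from cells kept for 6 h in DMEM lacking serum and glutamine. The growth medium of all of them held 10% serum. The labels do not say whether the guide-carrying cells were clones or pools, nor whether replicates were separate cultures, so p-values reflect only how far these samples scatter, and that scatter may be technical. Both guides were compared with the same 3 safe libraries.

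Integrins are receptors made of 1 alpha and 1 beta chain that tie the cytoskeleton to the matrix or to other cells. The pair is put together in the endoplasmic reticulum before it reaches the surface, and the alpha chain largely sets which ligand is bound. Leukocytes have their own beta-2 family, in which Itgb2 (CD18) pairs with Itgal (CD11a) to make LFA-1, with Itgam (CD11b) to make Mac-1, or with Itgax (CD11c). These bind ICAM proteins and complement fragments and serve macrophage adhesion, migration and phagocytosis. Itgb1 (CD29) pairs with Itga4 for VCAM-1 and fibronectin, with Itga5 for fibronectin, with Itga6 for laminins and with Itgav. Itgav also pairs with Itgb5, and that receptor binds vitronectin and takes part in the uptake of dying cells.

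Gene counts summed to between 16405296 and 25613961 per library. Levels are given as CPM, gene counts relative to the TMM-scaled library size, with the SD over 3 libraries, and a change is called where edgeR's quasi-likelihood test gave a Benjamini-Hochberg adjusted p under 0.05. The mRNA of the targeted gene was not lower with either guide. Slc12a9 ranged from 44.84 to 53.46 CPM in the safe libraries, from 62.58 to 67.01 with sgRNA 11 and from 48.23 to 51.68 with sgRNA 15, so its level was higher with sgRNA 11 (log2 fold change 0.43, SE 0.05, edgeR adjusted p = 6.45e-13) and was not called changed with sgRNA 15 (0.05, SE 0.05, adjusted p = 0.426). A count over the whole gene does not show whether the coding sequence was disrupted. All 10 macrophage markers passed the filter on low counts. Marco (group means of 1.529 to 2.544 CPM) and Mrc1 (3.871 to 6.042 CPM) were low, and the others held at least 27.49 CPM in every library. The summed level of the 10 markers was 5746.1 to 5942.0 CPM in the safe libraries, 9028.9 to 9316.5 with sgRNA 11 and 7497.1 to 7603.5 with sgRNA 15. In bulk RNA, fewer cells of a type and less RNA per cell cannot be told apart.

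Itgb2, Itgal and Itgam, the beta-2 subunits with more than trace levels, rose with both guides, and Itgal rose most among them. Against safe sgRNA, 8 of the 10 integrin genes were called with sgRNA 11, 5 higher and 3 lower, where 65.8% of all 13453 tested genes were called (33.3% higher and 32.4% lower). With sgRNA 15, 9 of 10 were called, 6 higher and 3 lower, beside 62.9% of all tested genes (32.2% higher and 30.7% lower). With so many genes called, the counts of members say little, and the size of each change carries the description. The median log2 fold change of the 10 genes was 0.191 with sgRNA 11 and 0.116 with sgRNA 15, where the median over all tested genes was 0.013 and 0.012. Without regard to direction, the median size of the log2 fold change over all tested genes was 0.325 and 0.294. Smaller changes than that were those of Itga4, Itga6, Itgax, Itgav and Itgb1 with sgRNA 11, and of Itga4, Itga5, Itgam and Itgb1 with sgRNA 15. The libraries of sgRNA 11 and safe sgRNA did not overlap for 8 members, against 67.7% of all tested genes, and those of sgRNA 15 and safe sgRNA did not overlap for 9, against 65.8%.

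**Figure D1:**
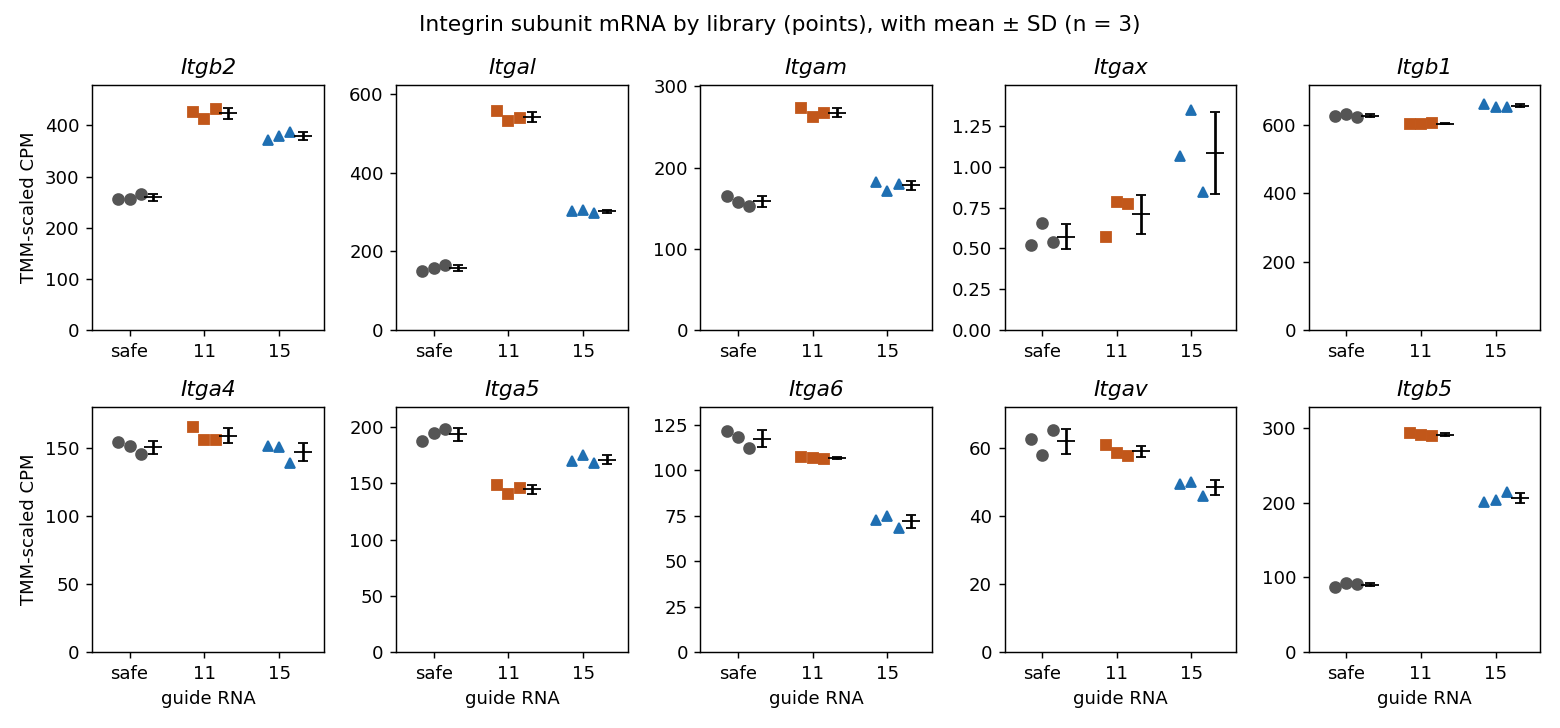
TMM-scaled CPM (vertical axis, linear from 0, with its own range in each panel) of the 10 integrin subunits, 1 panel per gene. Each point is 1 library with safe sgRNA, sgRNA 11 or sgRNA 15, and the bar beside them is the mean ± SD (n = 3). Itgal and Itgb5 separate furthest, with safe libraries at 150.7 to 166.7 CPM and 87.68 to 92.12 CPM, and Itgax does not exceed 1.346 CPM in any library.

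Itgb2 encodes the beta chain shared by the whole family (chromosome 10, positions 77530252 to 77565708, mm10). Its level was 255.5, 256.1 and 266.4 CPM in the safe libraries, 426.5, 411.5 and 432.6 with sgRNA 11, and 372.3, 379.7 and 387.9 with sgRNA 15. The 3 groups were fully separated, with safe lowest and sgRNA 11 highest. Itgb2 was 1.63-fold higher with sgRNA 11 (log2 0.71, SE 0.03, edgeR adjusted p = 2.91e-41) and 1.47-fold higher with sgRNA 15 (log2 0.55, SE 0.03, adjusted p = 1.84e-33).

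Itgal, the alpha chain of LFA-1 (chromosome 7, positions 127296260 to 127335138, mm10), had the largest change of the 10 genes with sgRNA 11. The safe libraries held 150.7, 157 and 166.7 CPM, the sgRNA 11 libraries 556.4, 531.8 and 538.7, and the sgRNA 15 libraries 303.2, 304.4 and 297.8. Again no library of 1 group reached the range of another. The rise was 3.44-fold with sgRNA 11 (log2 1.78, SE 0.03, edgeR adjusted p = 1.72e-68) and 1.91-fold with sgRNA 15 (log2 0.94, SE 0.03, adjusted p = 6.95e-47).

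Itgam, the alpha chain of Mac-1, the complement receptor for iC3b, lies on the same chromosome (128062640 to 128118491). Its level was 164.9, 157.9 and 152.2 CPM in the safe libraries, 273.2, 262.5 and 266.7 with sgRNA 11, and 182.8, 171.7 and 180.2 with sgRNA 15. The sgRNA 11 libraries stood well above all others, whereas those of sgRNA 15 lay just above the safe ones. Itgam was 1.69-fold higher with sgRNA 11 (SE 0.03 on the log2 scale, edgeR adjusted p = 1.21e-39) and 1.12-fold higher with sgRNA 15 (log2 0.17, SE 0.03, adjusted p = 9.1e-07). In GENCODE M21, 68.67% of its exon length (3450 of 5024 bp) is shared with Gm49368 on the same strand, which had 0 to 3 counts in each library. Reads in the shared exons can be ambiguous between the genes and lost, so the level of Itgam is uncertain, and its fold changes compare the reads that were kept.

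Itgax, the CD11c alpha chain of the remaining beta-2 receptor listed here, starts 11.1 kb beyond the end of Itgam (128129547 to 128150657) but was barely transcribed. Its counts were 13, 13 and 10 in the safe libraries, 13, 14 and 17 with sgRNA 11 and 22, 32 and 14 with sgRNA 15. That makes 0.5719 ± 0.07433 CPM, 0.7078 ± 0.1177 CPM and 1.085 ± 0.2501 CPM (SD, n = 3). The gene rose 1.93-fold with sgRNA 15 (log2 0.95, SE 0.35, edgeR adjusted p = 0.0159) and was not called with sgRNA 11 (log2 0.30, SE 0.38, adjusted p = 0.501). The call with sgRNA 15 was lost without safe replicate 1 (edgeR adjusted p = 0.0633) and without sgRNA 15 replicate 2 (adjusted p = 0.122).

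The promoters of 7 of the 10 genes were in a RefSeq table for GRCm38.p6, as 300 bases from 250 before to 50 after the annotated start. Itgam and Itgax are shown because they are neighbours of 1 family with very different levels, Itgb5 because it rose most among the other genes, and Itga5 because it fell with both guides. The windows are chr7:128062390-128062689 (plus strand), chr7:128129300-128129599 (plus strand), chr16:33829415-33829714 (plus strand) and chr15:103366742-103367041 (minus strand), each written 5′ to 3′. Capitals mark GAGGAA, a purine-rich motif of the kind bound by the myeloid factor PU.1, or its reverse complement TTCCTC, the only motif searched.
Itgam: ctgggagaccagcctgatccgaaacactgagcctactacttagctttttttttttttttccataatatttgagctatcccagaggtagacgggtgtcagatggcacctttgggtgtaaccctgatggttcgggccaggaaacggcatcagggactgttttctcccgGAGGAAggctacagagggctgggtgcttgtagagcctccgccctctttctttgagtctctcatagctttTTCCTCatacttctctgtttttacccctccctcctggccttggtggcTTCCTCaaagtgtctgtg
Itgax: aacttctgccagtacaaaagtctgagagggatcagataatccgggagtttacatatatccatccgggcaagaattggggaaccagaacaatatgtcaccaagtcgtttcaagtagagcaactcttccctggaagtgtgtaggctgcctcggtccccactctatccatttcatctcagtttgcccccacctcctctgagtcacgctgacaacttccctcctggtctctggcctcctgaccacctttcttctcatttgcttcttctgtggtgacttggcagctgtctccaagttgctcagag
Itgb5: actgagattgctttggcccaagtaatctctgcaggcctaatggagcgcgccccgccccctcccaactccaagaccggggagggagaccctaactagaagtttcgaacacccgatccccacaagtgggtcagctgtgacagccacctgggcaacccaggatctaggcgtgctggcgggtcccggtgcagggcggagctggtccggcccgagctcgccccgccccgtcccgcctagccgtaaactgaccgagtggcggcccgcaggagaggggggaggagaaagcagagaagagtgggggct
Itga5: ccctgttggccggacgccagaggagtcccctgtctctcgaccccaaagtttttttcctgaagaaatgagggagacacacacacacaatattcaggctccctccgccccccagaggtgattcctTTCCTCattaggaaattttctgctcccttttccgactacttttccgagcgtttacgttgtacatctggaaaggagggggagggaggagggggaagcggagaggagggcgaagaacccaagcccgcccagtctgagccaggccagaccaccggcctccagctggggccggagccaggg
Itgam held the motif 3 times, at positions 167, 236 and 283 from the 5′ end of the window, where position 251 is the annotated start. Itga5 held it at position 124, and it was absent from these windows of Itgax, Itgb5 and Itga4. Itgav held it at positions 33 and 244, and Itgb1 at position 242. Of all 32851 promoters in the table, 28.3% held it on either strand. The windows of Itgam and Itgax had 6 and 5 CpG dinucleotides, near the median of 7 over all promoters. The other 5 windows had more, with 27 for Itgb1, 24 for Itgav, 20 for Itgb5, 13 for Itga5 and 10 for Itga4. Spi1, which encodes PU.1, moved little and in opposite directions, from 526.2 ± 18.43 CPM in the safe libraries to 566.8 ± 11.97 with sgRNA 11 (log2 0.11, edgeR adjusted p = 9.21e-05) and 491.2 ± 14.51 with sgRNA 15 (log2 -0.10, adjusted p = 0.000343).

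The beta-1 family did not follow the beta-2 family. Itgb1, on chromosome 8 (128685654 to 128733200), was the most abundant of the 10 mRNAs per kb of exon and nearly constant. The safe libraries held 624.7, 631.2 and 622 CPM, the sgRNA 11 libraries 602.3, 601.3 and 603.8, and the sgRNA 15 libraries 659.7, 651.7 and 652.7. The groups did not overlap although they lay close together. The log2 fold change was -0.06 with sgRNA 11 (SE 0.02, edgeR adjusted p = 0.0272) and 0.06 with sgRNA 15 (SE 0.02, adjusted p = 0.00982). Both calls depended on the processing: with scaling by library size alone the first became -0.02 (edgeR adjusted p = 0.382), and with a correction for GC content and length the second became 0.0033 (edgeR adjusted p = 0.898). The first was also lost in edgeR without sgRNA 11 replicate 1, sgRNA 11 replicate 2 or sgRNA 15 replicate 1, and the second without safe replicate 3 or sgRNA 15 replicate 3.

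Itga5, the fibronectin receptor alpha chain (chromosome 15, 103344286 to 103366763, minus strand), fell with both guides. Its level was 187.4, 194.9 and 197.8 CPM in the safe libraries, 148.5, 140.3 and 145.5 with sgRNA 11, and 169.9, 175.5 and 167.7 with sgRNA 15. The 3 groups were separate, with sgRNA 15 between the others. Itga5 was 1.33-fold lower with sgRNA 11 (SE 0.03 on the log2 scale, edgeR adjusted p = 3.8e-22) and 1.13-fold lower with sgRNA 15 (log2 -0.17, SE 0.03, adjusted p = 2.69e-07).

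Itga6, a laminin receptor alpha chain (chromosome 2, 71745616 to 71858416), showed the opposite order of guides. It was at 121.3, 118.4 and 112 CPM in the safe libraries, 107, 106.8 and 106 with sgRNA 11, and 72.37, 74.95 and 68.08 with sgRNA 15. Only sgRNA 15 lay far from the safe libraries. The fall was 1.1-fold with sgRNA 11 (log2 -0.14, SE 0.04, edgeR adjusted p = 0.000453) and 1.63-fold with sgRNA 15 (log2 -0.70, SE 0.04, adjusted p = 8.48e-30).

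Itga4, the VCAM-1 and fibronectin receptor alpha chain (chromosome 2, 79255426 to 79333123), hardly moved. Its level was 154.6, 151.4 and 145.6 CPM in the safe libraries, 165.5, 156.1 and 155.7 with sgRNA 11, and 151.3, 150.5 and 139.1 with sgRNA 15. The safe and sgRNA 15 libraries overlapped, and the lowest sgRNA 11 library was barely above the highest safe one. The log2 fold change was 0.08 with sgRNA 11 (SE 0.03, edgeR adjusted p = 0.0238), a call that DESeq2 did not make (adjusted p = 0.0956) and that edgeR lost without safe replicate 2, safe replicate 3 or sgRNA 11 replicate 1. It was -0.03 with sgRNA 15 (SE 0.03, edgeR adjusted p = 0.382), turned to 0.0053 when libraries were scaled by size alone, and passed the threshold at -0.07 after correction for GC content and length (edgeR adjusted p = 0.0308).

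Itgav and Itgb5, which form the vitronectin receptor, moved apart. Itgav (chromosome 2, 83724397 to 83806916) had levels of 62.77, 58.01 and 65.26 CPM in the safe libraries, 60.73, 58.64 and 57.5 with sgRNA 11, and 49.48, 49.97 and 45.75 with sgRNA 15. The first pair of groups overlapped, and the sgRNA 15 libraries lay below both. Itgav was 1.28-fold lower with sgRNA 15 (log2 -0.35, SE 0.05, edgeR adjusted p = 4.3e-10) and was not called with sgRNA 11 (log2 -0.07, SE 0.05, adjusted p = 0.163), though without safe replicate 2 that difference was -0.13 (edgeR adjusted p = 0.0236).

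Itgb5 (chromosome 16, 33829665 to 33949338) had the largest change of the 10 genes with sgRNA 15 and came next to Itgal with sgRNA 11. Its level was 87.68, 92.12 and 90.63 CPM in the safe libraries, 293.2, 289.7 and 289.5 with sgRNA 11, and 200.2, 203.9 and 214.1 with sgRNA 15. All 3 groups were separate by a wide margin. It was 3.23-fold higher with sgRNA 11 (log2 1.69, SE 0.03, edgeR adjusted p = 3.78e-64) and 2.29-fold higher with sgRNA 15 (log2 1.19, SE 0.03, adjusted p = 8.71e-52).

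**Figure D2:**
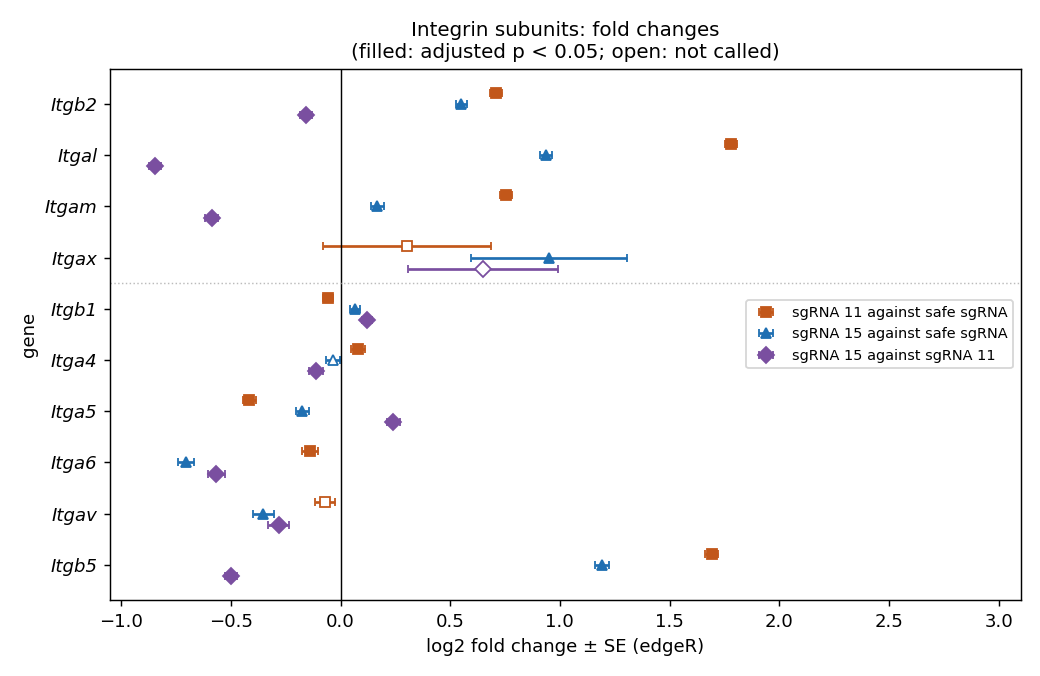
Log2 fold change (horizontal axis, with the standard error as bars) of each integrin subunit in 3 comparisons: sgRNA 11 against safe sgRNA (squares), sgRNA 15 against safe sgRNA (triangles) and sgRNA 15 against sgRNA 11 (diamonds). Filled symbols have an adjusted p under 0.05, and the dotted line separates the beta-2 family above from the other genes. Itgal and Itgb5 lie furthest right at 1.78 and 1.69 with sgRNA 11, and Itgax has the widest bars.

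The guides also differed from each other. Between sgRNA 15 and sgRNA 11, 9 of the 10 genes were called, 2 higher and 7 lower with sgRNA 15, where 33.5% of all tested genes were called (18% higher and 15.5% lower). The libraries of the 2 guides did not overlap for any of the 10 genes, beside 42.8% of all tested genes. The median log2 difference of the 10 genes was -0.219, against 0.006 over all tested genes. Without regard to direction, the median size of the difference over all tested genes was 0.136, and Itga4 and Itgb1 differed by less. Relative to sgRNA 11, the level with sgRNA 15 was lower by the largest amount for Itgal (log2 -0.85, edgeR adjusted p = 2.31e-45), followed by Itgam (-0.59, adjusted p = 1.48e-31), Itga6 (-0.57, adjusted p = 5.5e-23) and Itgb5 (-0.50, adjusted p = 3.82e-28). For Itgal, Itgam, Itgb2 and Itgb5 the level with sgRNA 15 lay between safe sgRNA and sgRNA 11, whereas for Itga6 and Itgav it lay below both. Smaller differences were called for Itgav (log2 -0.28, edgeR adjusted p = 9.45e-07), Itgb2 (-0.16, adjusted p = 2.21e-07) and Itga4 (-0.11, adjusted p = 0.00341), the last of which was lost without sgRNA 15 replicate 3 (adjusted p = 0.0669). Itga5 (log2 0.24, edgeR adjusted p = 1.88e-10) and Itgb1 (0.12, adjusted p = 8.38e-06) were higher with sgRNA 15. Itgax was not called (log2 0.65, SE 0.34, edgeR adjusted p = 0.143).

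To set one gene beside another, CPM were divided by the length of each gene's exons in kilobases. In the safe libraries Itgb1 led with 153.4 CPM per kb, followed by Itgb2 (84.97), Itga5 (39.2), Itgam (31.51), Itgb5 (25.37), Itgal (24.07), Itga6 (12.99), Itga4 (10.77), Itgav (5.772) and Itgax (0.1191). Of these neighbours, only Itgb5 and Itgal overlapped between libraries. With sgRNA 11, Itgal (82.56) and Itgb5 (81.84) moved up to the third and the fourth place behind Itgb1 (147.6) and Itgb2 (138.8), and these 2 again overlapped. Below them came Itgam (53.23), Itga5 (29.35), Itga6 (11.81), Itga4 (11.38), Itgav (5.487) and Itgax (0.1474), with overlap between Itga6 and Itga4. With sgRNA 15 the order was Itgb1 (160.4), Itgb2 (124.5), Itgb5 (57.99), Itgal (45.94), Itgam (35.48), Itga5 (34.67), Itga4 (10.52), Itga6 (7.956), Itgav (4.505) and Itgax (0.2259), and only Itgam and Itga5 overlapped. The order rests on the length used. Per kb of coding sequence, Itga4 stood at 48.62 CPM per kb in the safe libraries, above Itgam (43.98), Itgal (41.74) and Itgb5 (36.39), because its exons extend far beyond its coding sequence (13978 and 3096 bp). On that length Itga4 also exceeded Itga5 with sgRNA 11 (51.39 and 45.55), and Itga5 exceeded Itgam with sgRNA 15 (53.82 and 49.52). Itgam moved further on another length, the 1574 bp of exon that it shares with no other gene. All its kept counts were divided by that length, since reads were not recounted by exon. The level is too high if any reads in shared exons were kept, which is not known. On that length Itgam stood at 100.6 CPM per kb in the safe libraries, 169.9 with sgRNA 11 and 113.2 with sgRNA 15. That is above Itgb2 in the safe and sgRNA 11 libraries, above Itgb1 with sgRNA 11, and below Itgb2 with sgRNA 15.

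Within the beta-2 family the alpha chains differed in how they stood to their beta chain. The log2 ratio of Itgal to Itgb2, on the per-kb scale, was -1.87 to -1.78 in the safe libraries, -0.79 to -0.72 with sgRNA 11 and -1.49 to -1.40 with sgRNA 15. It was thus higher by 1.07 with sgRNA 11 and by 0.38 with sgRNA 15, with no overlap between groups. The ratio of Itgam to Itgb2 was -1.53 to -1.35 in the safe libraries and -1.42 to -1.36 with sgRNA 11, which overlapped, and -1.86 to -1.75 with sgRNA 15, below both. The mean ratio of Itgam to Itgb2 thus differed from that of the safe libraries by 0.05 with sgRNA 11, less than the SD of the safe libraries (0.0887), and by -0.38 with sgRNA 15. The ratio of Itgax to Itgb2 had means of -9.49, -9.89 and -9.13 in the 3 groups, from 10 to 32 counts per library. With 3 libraries against 3, the 2-sided exact permutation test cannot give a p below 0.1, and after adjustment over all 24 comparisons of 8 pairs the smallest adjusted p was 0.114. No ratio difference could therefore pass 0.05, and only size and overlap are described. Of the 24, 21 did not overlap, but the comparisons share libraries, and no such share was computed for other gene pairs. For single genes, no overlap was seen for 67.7% of all tested genes between sgRNA 11 and safe sgRNA. It was 65.8% between sgRNA 15 and safe sgRNA, and 42.8% between the guides.

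**Figure D3:**
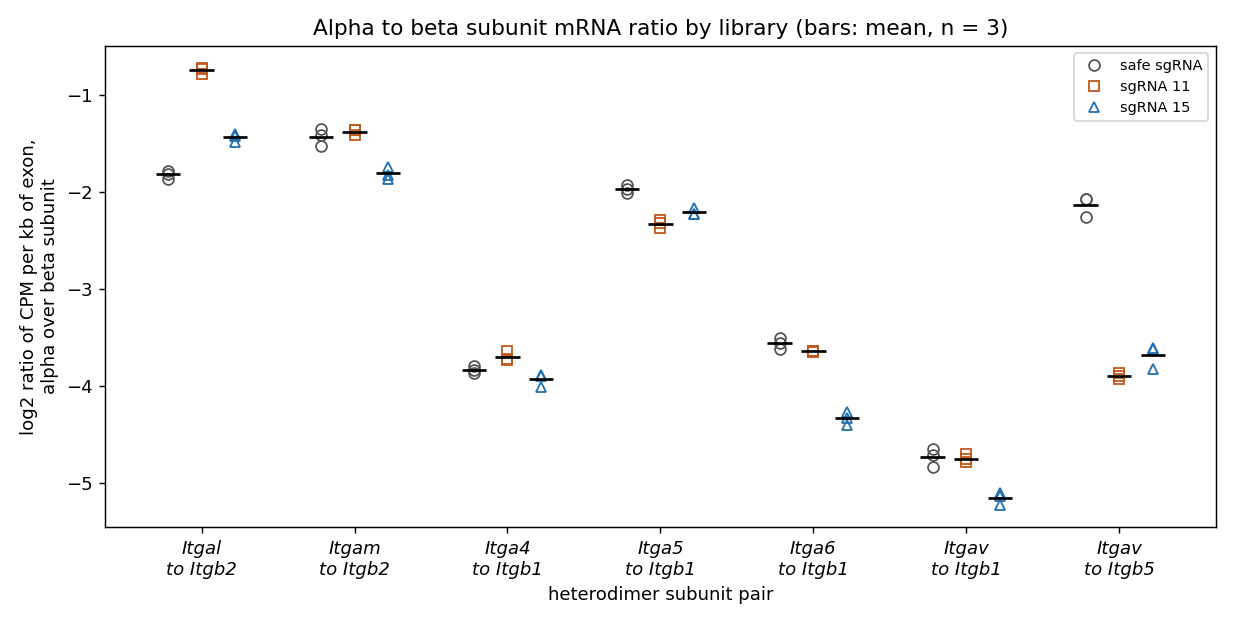
Log2 ratio of alpha to beta subunit level per kb of exon (vertical axis) for 7 heterodimer pairs, 1 point per library, by guide, with bars at the group means. The pair with Itgax is not drawn. The Itgal to Itgb2 ratio has a mean of -1.82 in the safe libraries and -0.75 with sgRNA 11, and the Itgav to Itgb5 ratio means of -2.14 and -3.90.

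Summed over Itgal, Itgam and Itgax, the alpha chains of the beta-2 family amounted to 55.7 ± 0.2167 CPM per kb in the safe libraries, 135.9 ± 2.97 with sgRNA 11 and 81.64 ± 1.01 with sgRNA 15 (SD, n = 3). Itgal made up 43.22 ± 2.218% of that sum in the safe libraries, 60.73 ± 0.1063% with sgRNA 11 and 56.28 ± 0.9294% with sgRNA 15. Values over exon length shared with no other gene assume that no read in shared exons was kept. On that length the share of Itgal was 19.31%, 32.68% and 28.83%, and Itgam held most of the sum at 80.59%, 67.26% and 71.03%. The alpha sum divided by Itgb2 was 0.6557 ± 0.01477 in the safe libraries, 0.9798 ± 0.02253 with sgRNA 11 and 0.656 ± 0.01992 with sgRNA 15. On this length the quotient was higher with sgRNA 11, and with sgRNA 15 it overlapped that of the safe libraries. Over exon length shared with no other gene it was 1.469, 1.821 and 1.281, so the alpha sum exceeded Itgb2 in all 3 groups and sgRNA 15 stood below safe sgRNA. With coding length it was 0.7722, 1.198 and 0.7947. The quotient was thus highest with sgRNA 11 on each length, while whether the alpha sum lies below or above Itgb2 depends on the length. The mean share of Itgal was above that of the safe libraries with both guides on all 3 lengths, but Itgal was not the main alpha chain on the unshared length.

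For the 4 listed alpha chains of the beta-1 family, the mean ratio of alpha to beta was lower than in the safe libraries with sgRNA 15. With sgRNA 11 it was lower for all but Itga4. Itga5 to Itgb1 had a mean log2 ratio of -1.97 in the safe libraries, -2.33 with sgRNA 11 and -2.21 with sgRNA 15. Itga6 to Itgb1 went from -3.56 to -3.64 and -4.33, and Itga4 to Itgb1 from -3.83 to -3.70 and -3.93. Itgav to Itgb1 stood at -4.73, -4.75 and -5.16, and its safe and sgRNA 11 libraries overlapped (difference -0.02, exact permutation p = 0.9, adjusted p = 0.9). The sum of these 4 alpha chains divided by Itgb1 was 0.4481 ± 0.003994 in the safe libraries, 0.3931 ± 0.00871 with sgRNA 11 and 0.3593 ± 0.01145 with sgRNA 15 (SD, n = 3), with no overlap among the groups. The sum leaves out Itga9, a further partner of Itgb1 with a mean of 140.7 CPM in the safe libraries. It also counts Itgav in full, although Itgav pairs with Itgb5 too. Per kb of exon, Itga5 made up 57.03%, 50.57% and 60.16% of that sum, and Itga6 18.9%, 20.36% and 13.8%. With coding length Itga5 made up 37.12%, 30.92% and 39.01%, and Itga4 29.65%, 34.88% and 34.39%, so that Itga4 led with sgRNA 11. The sum divided by Itgb1 was then 0.646, 0.6031 and 0.5198.

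**Figure D4:**
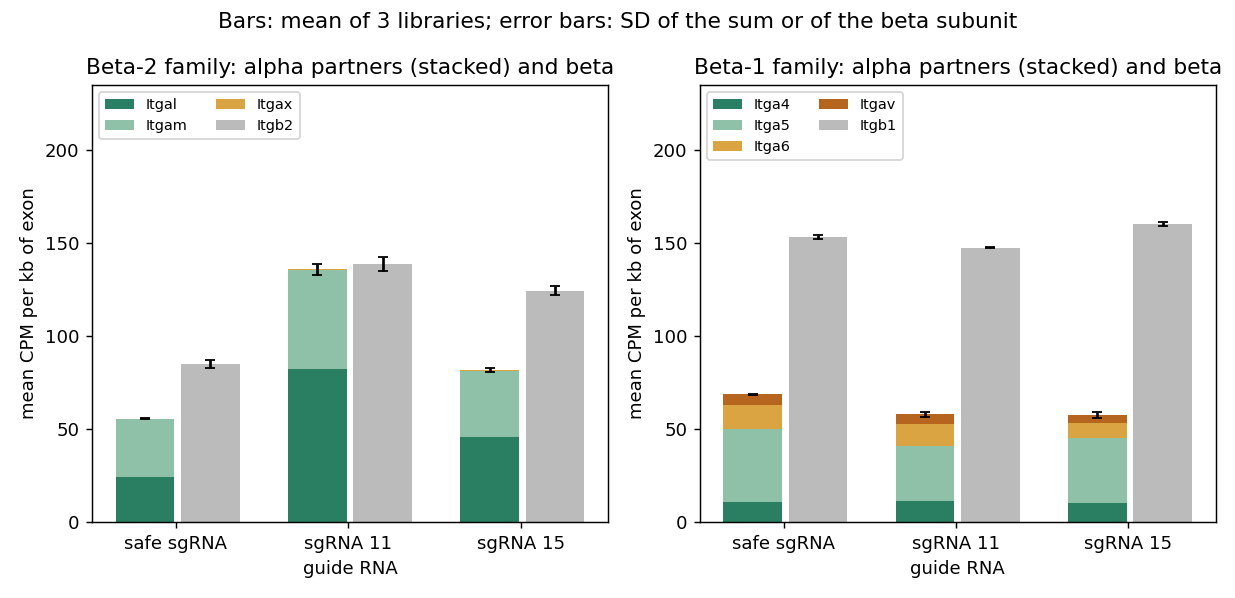
Mean CPM per kb of exon (vertical axis, 3 libraries per bar) of the alpha partners, stacked, beside their beta chain, for the beta-2 family (left) and the beta-1 family (right). Error bars are the SD of the alpha sum or of the beta chain. On the left the alpha sum goes from 55.7 in the safe libraries to 135.9 with sgRNA 11 and nearly meets Itgb2 at 138.8, and on the right the alpha sum stays below Itgb1 in all 3 groups.

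Of the 8 pairs, Itgav and Itgb5 had the largest difference in ratio against safe sgRNA. Their log2 ratio per kb of exon ranged from -2.26 to -2.07 in the safe libraries, from -3.93 to -3.87 with sgRNA 11 and from -3.82 to -3.61 with sgRNA 15. It was lower than in the safe libraries, the difference being -1.76 with sgRNA 11 and -1.55 with sgRNA 15, without overlap. Itgb5 rose with both guides, and Itgav fell with sgRNA 15. Itgb5 thus exceeded its only alpha partner per kb by more in the guide-carrying libraries than in the safe ones.

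Of 17 other integrin subunits, 6 were tested, and 3 were called with sgRNA 11 (2 higher and 1 lower) and 4 with sgRNA 15 (1 higher and 3 lower). That is 50% and 66.7% of those tested, where 65.8% and 62.9% of all tested genes were called. Itga9, a further alpha partner of Itgb1, fell with both guides, from 140.7 ± 6.477 CPM to 84.69 ± 2.037 (log2 -0.73, edgeR adjusted p = 1.22e-32) and 85.97 ± 1.286 (log2 -0.71, adjusted p = 1.34e-31). Itga8, another partner of Itgb1, went up with sgRNA 11, from 13.34 ± 0.3971 to 17.92 ± 0.5977 CPM, and down with sgRNA 15, to 9.064 ± 0.9672 (log2 0.43 and -0.57, edgeR adjusted p = 5.79e-06 and 1.97e-07). Itgb7, the second partner of Itga4 and singled out after its values were seen, was low and rose from 0.8983 ± 0.2176 to 3.548 ± 0.3817 and 2.242 ± 0.07045 CPM (log2 1.98 and 1.31, edgeR adjusted p = 6.87e-12 and 5.45e-06). Itgb3 and Itgb8, further partners of Itgav, and Itgad, the remaining alpha chain of the beta-2 family, were too low to test, with Itgb8 at 0 in all 9 libraries. With a minimum mean of 5 CPM, Itgb7 was not tested, and 1 and 0 of these other subunits were called higher.

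Genes that switch integrins on or off were called in both directions. Of 18 listed, 15 were tested, and all 15 were called with sgRNA 11 (9 higher, 6 lower) and 12 with sgRNA 15 (7 higher, 5 lower). Median log2 fold changes were 0.217 and 0.031. The shares called were 100% and 80%, beside 65.8% and 62.9% of all tested genes. Tln1, which encodes talin, the protein that binds beta tails and opens the receptor, rose with both, from 984.4 ± 21.3 to 1172.7 ± 15.16 and 1108.4 ± 16.11 CPM (log2 0.25 and 0.17, edgeR adjusted p = 1.24e-17 and 1.36e-10). Rap1a, a small GTPase upstream of talin, fell from 159.4 ± 6.503 to 106.1 ± 2.097 and 110.1 ± 3.466 CPM (log2 -0.59 and -0.54, edgeR adjusted p = 1.19e-28 and 4.79e-26). Cytip, a cytohesin-binding protein that restrains LFA-1 adhesion, fell from 23.61 ± 0.931 to 7.415 ± 0.365 and 6.006 ± 0.4629 CPM (log2 -1.67 and -1.98, edgeR adjusted p = 9.38e-30 and 3.75e-33). Sharpin, which keeps integrins inactive, rose from 50.26 ± 1.009 to 77.96 ± 2.454 and 69.55 ± 0.278 CPM (log2 0.63 and 0.47, edgeR adjusted p = 1.81e-23 and 3.15e-16). Skap2, an adaptor for beta-2 activation in macrophages, rose from 231.8 ± 4.419 to 270.2 ± 2.558 and 300.4 ± 3.631 CPM (log2 0.22 and 0.37, edgeR adjusted p = 4.12e-12 and 5.96e-23).

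Of 24 genes of the adhesion complex and its kinases, 21 were tested, with 9 higher and 7 lower with sgRNA 11, and 8 higher and 7 lower with sgRNA 15 (medians 0.021 and 0.017). Beside the 65.8% and 62.9% of all tested genes, 76.2% and 71.4% of these 21 were called. After correction for GC content and length, 12 were called lower with sgRNA 15. The kinases Fgr, Lyn and Syk, which relay beta-2 signals in myeloid cells, were each called higher with both guides. Lyn rose from 173.1 ± 3.984 to 240.6 ± 5.767 and 204.5 ± 6.527 CPM (log2 0.47 and 0.24, edgeR adjusted p = 6e-27 and 9.89e-12). Parvg, the haematopoietic parvin that links integrins to actin, rose from 262.7 ± 5.223 to 397.7 ± 6.909 and 328.9 ± 7.149 CPM (log2 0.60 and 0.32, edgeR adjusted p = 2e-36 and 1.11e-19). Vasp, an actin filament elongation factor, rose from 489.3 ± 9.792 to 659.4 ± 10.7 CPM with sgRNA 11 (log2 0.43, edgeR adjusted p = 1.51e-28). With sgRNA 15 Vasp stood at 517.2 ± 18.07 CPM (log2 0.08, edgeR adjusted p = 0.00329), which turned to -0.0168 after correction for GC content and length and was lost without sgRNA 15 replicate 3. Vcl, which encodes vinculin, fell from 63.57 ± 0.9217 to 29.63 ± 0.736 and 38.29 ± 2.187 CPM (log2 -1.10 and -0.73, edgeR adjusted p = 7.53e-34 and 2.23e-23), and is uncertain because 25.52% of its exon length overlaps Ap3m1.

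The ligands that these cells themselves express were divided. Of 25 listed, 11 were tested, with 6 higher and 3 lower with sgRNA 11, and 5 higher and 2 lower with sgRNA 15 (medians 0.295 and 0.159). In all, 81.8% and 63.6% were called, where the share of all tested genes was 65.8% and 62.9%. After correction for GC content and length, the count higher with sgRNA 15 was 3. Fn1, fibronectin, a ligand of the receptors with Itga5 and Itga4, rose from 27.42 ± 0.7587 to 96.54 ± 2.414 and 45.01 ± 1.89 CPM (log2 1.82 and 0.72, edgeR adjusted p = 2.08e-51 and 7.88e-22). Icam1, the ligand of LFA-1 and Mac-1, fell from 52.23 ± 0.9544 to 32.67 ± 2.158 and 26.86 ± 1.811 CPM (log2 -0.68 and -0.96, edgeR adjusted p = 8.18e-20 and 1.81e-27), while 11.72% of its exon length overlaps Gm47079. Lamc1, a chain of the laminins that Itga6 receptors bind, fell from 229.1 ± 8.338 to 153.9 ± 5.768 and 171.3 ± 5.228 CPM (log2 -0.57 and -0.42, edgeR adjusted p = 1.45e-30 and 2.39e-22). Spp1, osteopontin, a ligand of receptors with Itgav, fell from 995.6 ± 19.27 to 645 ± 17.07 CPM with sgRNA 11 (log2 -0.63, edgeR adjusted p = 5.25e-41) and rose to 1111.3 ± 22.26 with sgRNA 15 (log2 0.16, adjusted p = 2.76e-09), with 18.75% of its exon length shared with Gm42793.

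Of 20 genes for membrane partners and recycling of integrins, 19 were tested, with 8 higher and 7 lower with sgRNA 11, and 8 higher and 5 lower with sgRNA 15 (medians 0.071 and 0.092). These make 78.9% and 68.4% called, against 65.8% and 62.9% of all tested genes. Cd82, a tetraspanin that associates with integrins, rose from 41.51 ± 2.253 to 94.96 ± 1.797 and 93.65 ± 3.084 CPM (log2 1.19 and 1.17, edgeR adjusted p = 2.32e-41 and 1.57e-40). Slc3a2, the CD98 heavy chain, which binds beta tails and carries amino acid transporters, rose from 383.7 ± 4.933 to 544.7 ± 17.39 and 562 ± 3.829 CPM (log2 0.51 and 0.55, edgeR adjusted p = 7.02e-33 and 3.22e-35). Cd81, another tetraspanin, rose from 161.2 ± 5.473 to 224.4 ± 6.093 and 189.1 ± 1.822 CPM (log2 0.48 and 0.23, edgeR adjusted p = 1.4e-26 and 8.5e-11). Dab2, an endocytic adaptor for beta-1 integrins, fell from 1177.1 ± 11.18 to 1098.0 ± 16.59 and 929.2 ± 10.52 CPM (log2 -0.10 and -0.34, edgeR adjusted p = 3.94e-05 and 7.2e-25).

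Of 13 myeloid transcription factors, 11 were tested, with 6 higher and 3 lower against safe sgRNA with each guide (medians 0.108 and 0.131). With each guide 81.8% were called, beside 65.8% of all tested genes with sgRNA 11 and 62.9% with sgRNA 15. Klf4, a monocyte factor, rose from 15.73 ± 1.185 to 56.59 ± 1.733 and 52.87 ± 1.51 CPM (log2 1.84 and 1.74, edgeR adjusted p = 2.19e-45 and 4e-43). Maf rose from 134.8 ± 7.694 to 208.1 ± 1.48 and 173.4 ± 3.071 CPM (log2 0.62 and 0.36, edgeR adjusted p = 2.33e-32 and 7.26e-18). Cebpa, a myeloid lineage factor, rose from 4.244 ± 0.3696 to 9.427 ± 0.6727 and 7.998 ± 0.6054 CPM (log2 1.15 and 0.91, edgeR adjusted p = 8.36e-14 and 1.28e-09).

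**Figure D5:**
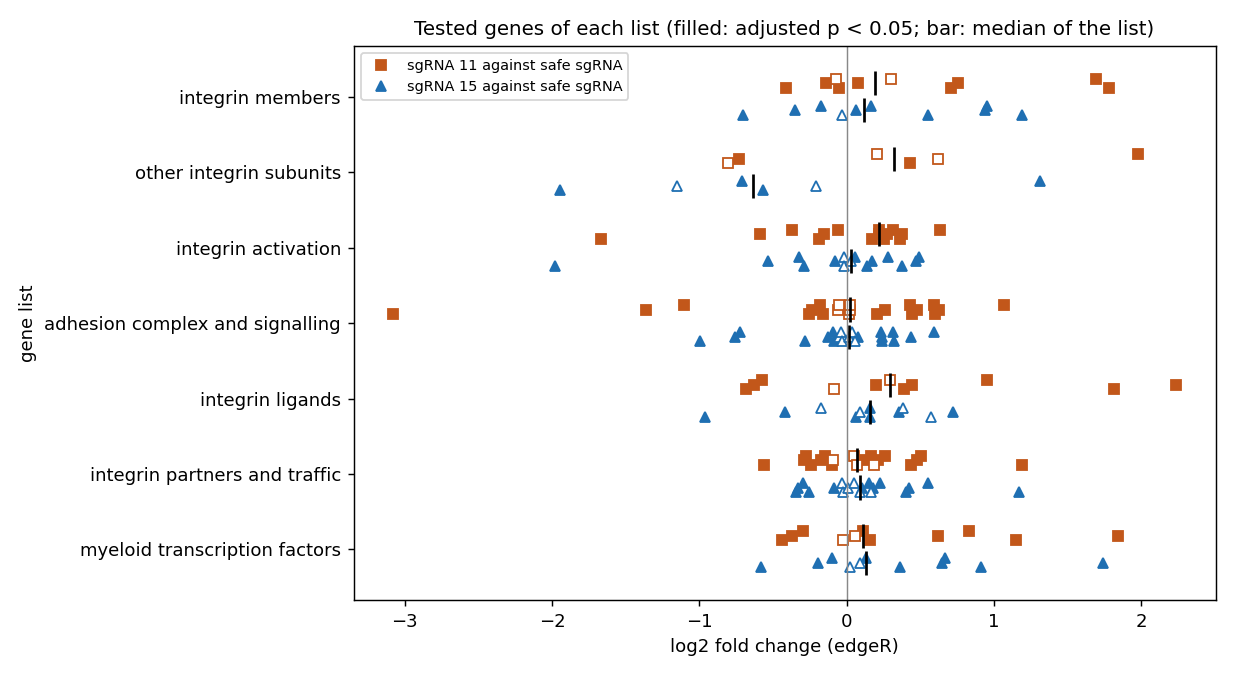
Log2 fold change (horizontal axis) of the tested genes of each list (rows) with sgRNA 11 (squares) and sgRNA 15 (triangles) against safe sgRNA, 1 point per gene, filled where the adjusted p is under 0.05, with the list's median as a bar. Points of every list lie on both sides of 0, and the medians of the 10 integrin members are 0.191 and 0.116.

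The 5 genes whose levels followed Itgal most closely, by Pearson's r of log2 CPM over the 9 libraries among 9306 tested genes with a mean of at least 5 CPM, were Ssh2 (r = 0.9985), Myo1c (0.9983), Alox5 (0.9969), Map3k5 (0.9969) and Arhgap45 (0.9968). Ssh2, which encodes a cofilin phosphatase, stood at 92 ± 0.6003 CPM in the safe libraries, 313.6 ± 8.516 with sgRNA 11 and 179.3 ± 4.5 with sgRNA 15. Alox5, which encodes 5-lipoxygenase, stood at 26.98 ± 1.8, 79.3 ± 0.9815 and 46.71 ± 1.177 CPM. Genes without a symbol, or with that of a predicted model, were left out of the 9306. The values of r describe 3 groups of libraries and mainly follow the order of the group means.

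Markers of other cell types were low apart from Pf4. The macrophage markers moved in both directions. Called were 90% of them with sgRNA 11 and 70% with sgRNA 15, beside 65.8% and 62.9% of all tested genes. Of the 10 markers, 6 were called higher and 3 lower with sgRNA 11, and 5 higher and 2 lower with sgRNA 15 (median log2 fold changes 0.130 and 0.086). Their sum mainly follows Lyz2, the macrophage lysozyme, which rose from 1727.3 ± 116.9 to 4513.1 ± 87.23 and 3566.6 ± 37.71 CPM. Without Lyz2, a sum chosen after seeing the data, the other 9 markers amounted to 4079.7 to 4105.9 CPM in the safe libraries, 4599.6 to 4713.1 with sgRNA 11 and 3943.2 to 3994.4 with sgRNA 15. Cd14, the co-receptor for lipopolysaccharide, fell with both guides (log2 -0.65 and -0.46, edgeR adjusted p = 2.95e-42 and 3.38e-32), while Adgre1, which encodes F4/80, rose with both (log2 0.75 and 0.65, adjusted p = 7.83e-22 and 4.05e-18). Cd68 was called lower with sgRNA 11 and higher with sgRNA 15, and Fcgr1 the other way round. Marco was called lower with sgRNA 11 alone. Csf1r rose from 1766.5 to 2627.8 CPM with sgRNA 11 and was not called with sgRNA 15 (1744.8 CPM). The part of these shifts in the integrin levels was not tested. Of 7 dendritic cell markers, 1 was tested, and their sum ran from 3.739 to 4.318 CPM in the safe libraries, 3.905 to 5.589 with sgRNA 11 and 5.326 to 5.745 with sgRNA 15, with Ccr7 and Siglech at 0. The 7 neutrophil markers summed to 1.819 to 2.915, 3.172 to 4.093 and 3.659 to 4.115 CPM, with S100a9 at 0, and the 7 T cell markers to 4.534 to 5.306, 9.038 to 9.154 and 9.365 to 9.884 CPM, nearly all Lck, with Cd3e, Cd3g and Cd8a at 0. The 6 megakaryocyte markers summed to 327.7 to 342.4, 370 to 405.9 and 252.6 to 264.8 CPM, nearly all Pf4, with Gp1bb and Gp6 at 0. B cell markers (5 genes) summed to at most 0.4078 CPM in any library, fibroblast markers (6 genes) to at most 2.607 CPM and epithelial markers (4 genes) to at most 0.05398 CPM.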

How the data were processed

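RNA-seq counts of 9 libraries were analysed, grouped by the guide named in the labels. Each deposited table holds raw read counts by gene from the authors' use of STAR and HTSeq with mm10, per the submitters' processing notes. Of versions, annotation and strand setting, none is given in the sources used here, so sense and antisense reads of overlapping genes may not be separated. HTSeq's tallies of unassigned reads were left out. Assigned reads made up 79.31 to 80.69% of each table, and ambiguous reads 6.32 to 6.56%. GENCODE M21 gave symbols for 55227 of 55487 identifiers, positions, lengths and overlaps, and an overlap of at least 10% of exon length is called uncertain.

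Counts were fitted with edgeR 4.0.16 in R 4.3.3 (filterByExpr with a minimum count of 10, TMM, robust quasi-likelihood, all 9 libraries, 6 residual degrees of freedom, 13453 genes tested), with Benjamini-Hochberg adjustment within each of 3 contrasts. The low-count filter admits a gene that is high in 1 group alone. Ratios of alpha to beta were tested by exact permutation with scipy 1.17.1. Alternatives were DESeq2 1.42.0, size factors by relative log expression, library size only, no filter, a minimum mean of 5 CPM, a replicate block, only the groups compared, a correction for GC content and length, coding length for ratios, and each library left out. Exon length shared with no other gene was added after seeing the data. It divides all kept counts of a gene, without a recount of reads by exon. The fit was also run on simulated counts in which most genes were unchanged. That does not check it where most genes are called, as against safe sgRNA here.

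Named were Slc12a9, the 10 members, up to 4 genes per list with the smallest p against safe sgRNA and at least 5 CPM on average, and the 5 genes most like the member with the largest change. Itgb7, Spi1, Tln1, the kinases Fgr and Syk, and the marker genes were named outside that rule. Of the list genes that the rule names, 1 is not reported here. The members and lists were chosen with earlier results of these data known.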

Additional observations from a re-analysis of the deposited data

Results flagged for a closer look

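Results are given here because the effects of the 2 guides, each against the same safe libraries, differed in edgeR's test of sgRNA 15 against sgRNA 11. Each value is the log2 effect of sgRNA 15 minus that of sgRNA 11. Among the 10 integrin subunits, 9 differed: Itgal by -0.85, Itgam by -0.59, Itga6 by -0.57, Itgb5 by -0.50, Itgav by -0.28, Itgb2 by -0.16, Itga4 by -0.11, Itgb1 by 0.12 and Itga5 by 0.24. Of all tested genes, 33.5% differed by the same test.

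Among the 21 genes named from the lists, 15 differed, beside 33.5% of all tested genes. These 21 were picked for a small p against safe sgRNA, so their count says little about the lists. Lower with sgRNA 15 were Fn1 by -1.10, Itga8 by -0.9965, Vasp by -0.35, Cytip by -0.31, Icam1 by -0.28, Parvg by -0.27, Maf by -0.26, Cd81 by -0.25, Lyn by -0.24, Dab2 by -0.24 and Sharpin by -0.16. Higher with sgRNA 15 were Spp1 by 0.78, Vcl by 0.38, Lamc1 by 0.16 and Skap2 by 0.15. The Skap2 difference was 0.0034 after correction for GC content and length. The Cytip difference lost its call without sgRNA 11 replicate 1, sgRNA 11 replicate 2 or sgRNA 15 replicate 1.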

How the results depend on the processing

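The counts of integrin subunits called stayed within 1.5 times their value under all alternatives run. With the replicate number as a block they were 8, 9 and 9 of 10 for sgRNA 11 and sgRNA 15 against safe sgRNA and for sgRNA 15 against sgRNA 11, as without it. Deviations of same-numbered libraries from their group means correlated at -0.008 to 0.058, and those of differently numbered libraries at -0.072 to 0.041. With 3 libraries per group, these values cannot decide whether the numbers pair the samples. Leaving out each library in turn gave 6 to 8, 8 to 9 and 8 to 9 members called. Of the alternative values of single members, 488 kept direction and call, 16 lost the call, 2 gained it and 1 changed sign, Itga4 with sgRNA 15 (0.0053 with library size only). The sign also changed for Slc12a9 with sgRNA 15 (-0.0651 after correction for GC content and length, and -0.0163 without safe replicate 1 to 0.1089 without safe replicate 2), Vasp with sgRNA 15 (-0.0168 after that correction), and, between the guides, Rap1a (-0.0508) and Cd82 (0.0335) under the same correction. The Itgav to Itgb1 difference with sgRNA 11, whose groups overlap, ran from -0.0697 to 0.026 as libraries were left out, positive without safe replicate 3 or sgRNA 11 replicate 3. Levels of alpha relative to beta (log2, safe libraries) depended on the length: from exon to coding length Itga4 to Itgb1 went from -3.83 to -2.38, Itgav to Itgb5 from -2.14 to -0.88, Itgav to Itgb1 from -4.73 to -3.68, Itga6 to Itgb1 from -3.56 to -2.87 and Itgal to Itgb2 from -1.82 to -1.42. Itgam to Itgb2 was -1.43 over exon length, -1.34 over coding length and 0.24 over exon length shared with no other gene. The last value assumes that no read in the shared exons was kept. A fixed length does not enter the differences between groups in the log2 ratio of 1 gene to another. It does enter those in the alpha sums and shares. The cause of the other shifts was not tested. Depth limits Itgax, which rests on 10 to 32 counts per library.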
